A study of Homo sapiens with 5 samples.

Results

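The 10 genes that govern the passage from G1 into S phase described here were chosen by name: the D cyclins CCND1, CCND2 and CCND3, the E cyclins CCNE1 and CCNE2, the kinases CDK4 and CDK6, the inhibitor CDKN1B, the retinoblastoma protein RB1 and the transcription factor E2F1. They were taken from the count table by gene symbol, 1 row each, which gave 9 genes of 14042 symbols in all, and CCNE2 was not analysed here. Ribosome footprints, the stretches of mRNA protected inside a ribosome during nuclease digestion, were sequenced from HAP1, an established human cell line with a near-haploid genome that derives from a leukaemia. The groups were wild-type cells (n = 2 libraries) and cells with a METTL18 knockout (n = 3), with no treatment named in the labels, and METTL18 is the enzyme that methylates a histidine in the ribosomal protein RPL3. The labels do not give the mutation, whether the knockout cells are 1 clone or several, or whether libraries come from separate cultures, so the spread behind each p-value is that of these libraries and may be technical.

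In G1, D cyclins bind CDK4 or CDK6, and these kinases phosphorylate RB1 and its relatives. Unphosphorylated pocket proteins hold E2F factors and keep S-phase genes low, and once E2F is released it drives genes such as cyclin E, which activates CDK2 and phosphorylates RB1 further. CDKN1B, the protein p27, inhibits cyclin E with CDK2 and also binds the D cyclin complexes. HAP1 cells grow as a cycling population, so a bulk level averages over cells in all phases. A higher share of cells in one phase and more footprints per cell cannot be told apart in these data, nor can more mRNA and more ribosomes on each mRNA.

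Wild-type libraries held 4887380 to 5302160 counts and knockout libraries 16339574 to 17629199. Depth thus moves with genotype, by 3.33 times on average, and the 5 calls among the genes described were also made with thinned knockout libraries. Levels are given as CPM, counts scaled by TMM to a common library size, with mean ± SD, and a positive log2 fold change means a higher level in the knockout. A gene was called when its adjusted p in the edgeR quasi-likelihood test over 11335 genes was under 0.05, and 74.4% of those genes were called, 37.8% higher and 36.6% lower. METTL18 itself fell from 5.71 ± 0.211 to 2.10 ± 0.117 CPM (log2 fold change -1.44). Its counts were 33 and 32 in wild-type libraries against 33, 32 and 34 in knockout libraries. The fall is thus relative to library size, and METTL18 footprints were still counted in the knockout. Of 12 blood-cell markers, 6 were in the table and none reached 0.4 CPM in any library, CD33 being at 0 in all 5. BCR and ABL1, the partners of the leukaemic fusion, stood at 6.68 ± 0.640 and 1.12 ± 0.554 CPM in the wild type, and at 8.11 ± 0.392 and 4.79 ± 0.310 CPM in the knockout, where ABL1 rose (log2 fold change 2.06). Defining markers of blood cells were thus near 0, and the labelled line could not be checked by them.

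All 9 genes passed the low-count filter. In the knockout 3 rose (CCNE1, CCND3 and CDKN1B), 2 fell (CCND2 and RB1) and 4 did not pass (CCND1, CDK4, CDK6 and E2F1). The 5 calls of 9 are no larger a share than the 74.4% of all genes, and the median log2 fold change of the 9 was 0.0874, beside 0.0161 over all genes tested. The knockout and wild-type values did not overlap for 7 of the 9, and for 83.5% of all genes. CCNE1 alone was called with a log2 fold change beyond 1 in either direction, as 27.5% of all genes were.

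**Figure D1:**
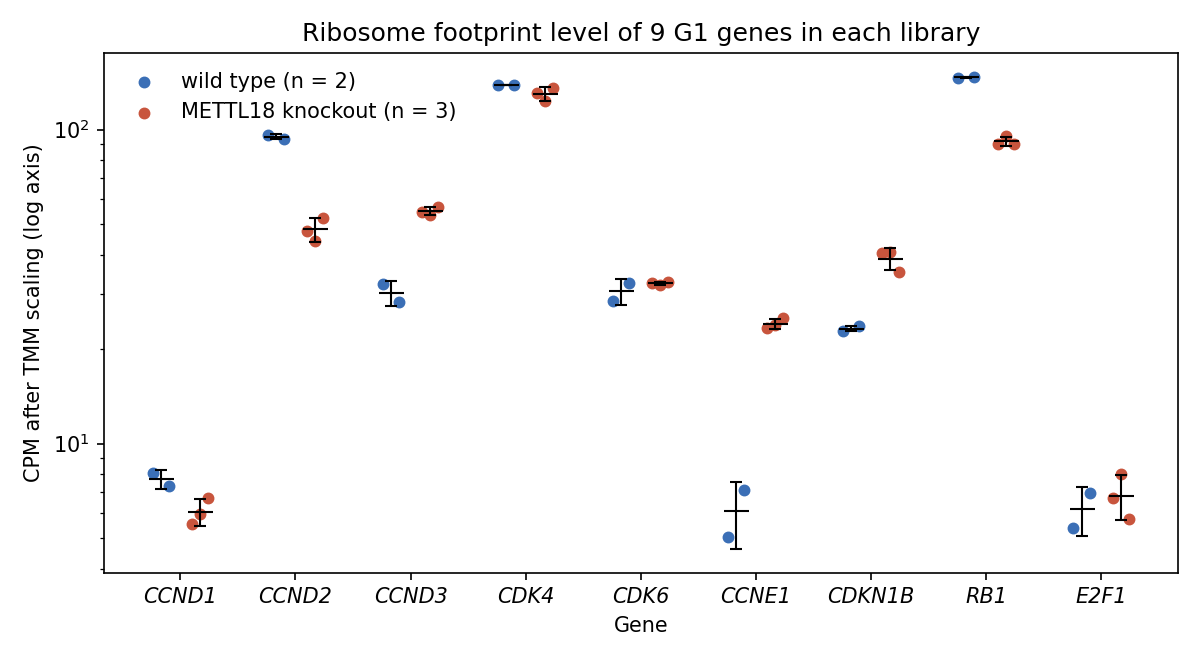
CPM after TMM scaling on a log axis for the 9 genes, with wild-type libraries in blue (n = 2), METTL18 knockout libraries in red (n = 3), and the mean and SD in black. CCNE1 moves from 6.09 to 24.1 CPM, CCND2 and CCND3 move in opposite directions, and the points of CDK6 and E2F1 overlap between groups.

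Among the D cyclins, which link growth signals to the cell cycle, the knockout libraries held less CCND2 and more CCND3. CCND2 (transcript ENST00000261254, hg38 chromosome 12, 4273772 to 4305350, plus strand, 5 exons) had 571 and 511 counts in wild-type libraries against 719, 721 and 826 in knockout libraries. In CPM these are 96.1 and 93.5 against 47.5, 44.3 and 52.4. Every wild-type value was above every knockout value, and CCND2 fell from 94.8 ± 1.88 (n = 2) to 48.1 ± 4.09 CPM (n = 3), by -0.98 on the log2 scale (SE 0.0708, adjusted p = 5.1e-16). Of all genes tested, 15.3% had a lower fold change.

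CCND3 (transcript ENST00000372991, hg38 chromosome 6, 41934933 to 41941848, minus strand, 5 exons) had 191 and 154 counts in wild-type libraries against 830, 868 and 895 in knockout libraries. Its CPM values were 32.2 and 28.2 against 54.8, 53.3 and 56.8. The groups did not overlap here either, and the gene rose from 30.2 ± 2.82 to 55.0 ± 1.73 CPM (log2 fold change 0.86, SE 0.0871, adjusted p = 1.04e-11). A larger log2 fold change was found for 16.1% of the genes tested.

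CCND1 (transcript ENST00000227507, hg38 chromosome 11, 69641087 to 69654474, plus strand, 5 exons), the D cyclin best known from its amplification in tumours, was the least translated of the 3. It had 48 and 40 counts in wild-type libraries against 84, 97 and 106 in knockout libraries, or 8.08 and 7.32 against 5.55, 5.96 and 6.73 CPM. The knockout values lay below the wild-type values, but the log2 fold change of -0.34 (95% interval -0.72 to 0.03) did not pass (adjusted p = 0.0925). Without METTL18 knockout replicate 3, its highest knockout library, CCND1 passed as lower (-0.43, adjusted p = 0.0468).

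Per kilobase of coding length, the make-up of the D cyclins differed between the groups. CCND2 gave 70.8% and 72.7% of the summed D cyclin level in wild-type libraries, and in knockout libraries 44.3%, 43.0% and 45.5%. CCND3 gave 23.4% and 21.7% there against 50.6%, 51.3% and 48.8% in the knockout. By these counts the highest D cyclin level was that of CCND2 in both wild-type libraries and of CCND3 in all 3 knockout libraries. The mean share differed by -27.5 percentage points for CCND2 and by 27.7 for CCND3 (exact permutation test over libraries, two-sided, p = 0.1 for each, the smallest this design allows). CCND1 held 5.70% ± 0.176 (SD, n = 2) and 5.49% ± 0.362 (SD, n = 3), with overlapping libraries (exact permutation p = 0.6).

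The 3 D cyclins together came to 157 and 148 CPM per kilobase in wild-type libraries against 124, 119 and 133 in knockout libraries, a ratio of means of 0.82 (exact permutation p = 0.1). This summed level is in CPM after TMM scaling, so it depends on the scaling between libraries. The shares of the single D cyclins do not, since each is taken within a library. In CCND2, only 17.5% of 28-base windows of the coding sequence occur in no other annotated gene of GENCODE 29, since the annotated gene AC008012.1 overlaps it on the same strand, against 99.7% in CCND1 and 98.5% in CCND3. The treatment of reads shared between genes is unknown here, so the level of CCND2 relative to the others is uncertain. Which of CCND2 and CCND3 stands first in the knockout libraries is therefore uncertain too.

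**Figure D2:**
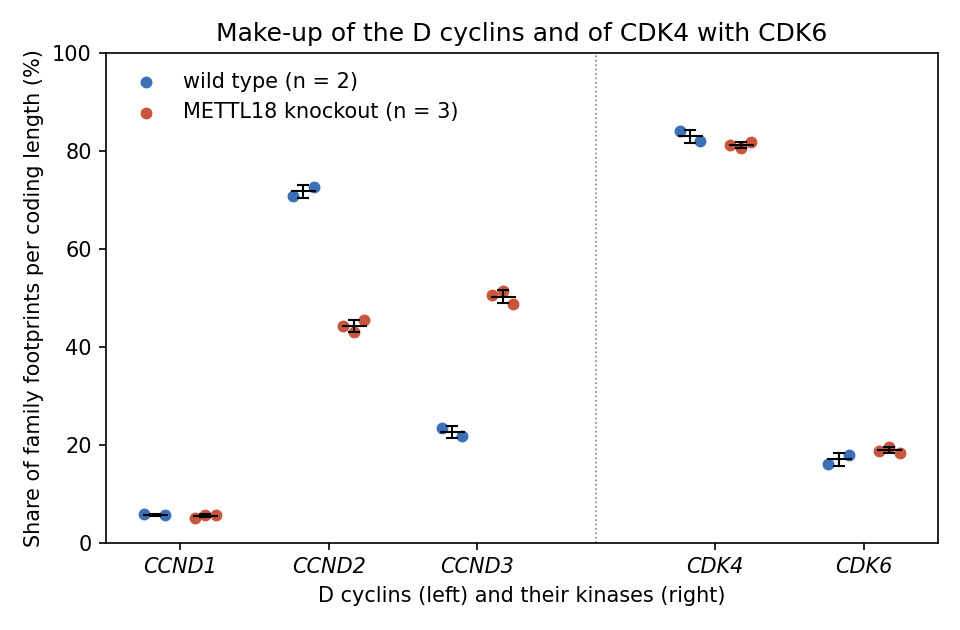
Share of each gene in the summed footprint level of its family per coding length (%), for the D cyclins at left and for CDK4 with CDK6 at right, with each library as a point and the mean and SD in black. CCND2 has means of 71.7% (wild type) and 44.3% (knockout), CCND3 has 22.6% and 50.2%, and the libraries of CCND1 overlap between the groups.

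The kinases that the D cyclins activate did not pass the test. CDK4 (transcript ENST00000257904, hg38 chromosome 12, 57747727 to 57752521, minus strand, 8 exons) had 823 and 757 counts in wild-type libraries against 1975, 2006 and 2143 in knockout libraries, or 138.6 and 138.5 against 130.4, 123.2 and 136.0 CPM. All 3 knockout values were slightly below both wild-type values, and the log2 fold change was -0.09 (95% interval -0.21 to 0.02, adjusted p = 0.131). This is near the threshold: without METTL18 knockout replicate 3 it passed as lower (-0.13, adjusted p = 0.0332), and it did so under 4 other settings. Among these was a fit with replicate number as a block, in which METTL18 knockout replicate 3 adds nothing to the comparison. TSPAN31 has exons on the opposite strand over part of CDK4, and its own row held 6.46 ± 1.99 and 8.09 ± 0.952 CPM.

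CDK6 (transcript ENST00000265734, hg38 chromosome 7, 92604921 to 92833917, minus strand, 8 exons) had 169 and 178 counts against 491, 521 and 514. Its CPM values were 28.5 and 32.6 against 32.4, 32.0 and 32.6. The groups overlapped, all knockout libraries lying close to the higher wild-type library. The log2 fold change was 0.09 (95% interval -0.10 to 0.28, adjusted p = 0.399), and with total-count scaling its sign turned (-0.18) without passing. CDK4 supplied 83.0% ± 1.35 of the pair per coding length in wild-type libraries and 81.2% ± 0.610 in knockout libraries, a difference of -1.83 percentage points (exact permutation p = 0.1).

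CCNE1, the cyclin that activates CDK2 at the end of G1, rose most of the 9. Its row (transcript ENST00000262643, hg38 chromosome 19, 29811898 to 29824308, plus strand, 12 exons) had 30 and 39 counts in wild-type libraries against 354, 387 and 395 in knockout libraries. That is 5.05 and 7.14 CPM against 23.4, 23.8 and 25.1 CPM. Each knockout library was over 3 times the higher wild-type library, and the mean rose from 6.09 ± 1.47 to 24.1 ± 0.881 CPM (log2 fold change 1.99, SE 0.153, adjusted p = 3.6e-15). Of the genes tested, 4.5% had a larger log2 fold change. The wild-type counts are few, and the log2 fold change was 1.75 without wild type replicate 1 and 2.25 without wild type replicate 2.

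CDKN1B, the inhibitor p27, rose as well. The row (transcript ENST00000228872, hg38 chromosome 12, 12717124 to 12722371, plus strand, 3 exons) had 136 and 129 counts in wild-type libraries against 613, 664 and 553 in knockout libraries, or 22.9 and 23.6 against 40.5, 40.8 and 35.1 CPM. Both groups stood clear of each other, with replicate 3 the lowest of the knockout, and its log2 fold change was 0.74 (SE 0.102, adjusted p = 2.23e-08). When a fold above 1.5 was required, this was the 1 call among the 5 that was lost (adjusted p = 0.0596).

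RB1, the pocket protein that binds E2F1, fell. Its row (transcript ENST00000267163, hg38 chromosome 13, 48303726 to 48481890, plus strand, 27 exons) had 866 and 804 counts in wild-type libraries against 1365, 1552 and 1417 in knockout libraries, or 145.8 and 147.1 against 90.1, 95.4 and 89.9 CPM. The wild-type libraries were above all knockout libraries, and its log2 fold change was -0.67 (SE 0.0562, adjusted p = 4.34e-14). All 28-base windows of its coding sequence were unique to the gene.

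E2F1, the founding member of the E2F family, did not pass. It had 32 and 38 counts in wild-type libraries against 102, 130 and 91 in knockout libraries (transcript ENST00000343380, hg38 chromosome 20, 33675683 to 33686404, minus strand, 7 exons), which is 5.39 and 6.95 CPM against 6.74, 7.99 and 5.77 CPM. The groups overlapped, and the log2 fold change of 0.16 had a 95% interval of -0.25 to 0.57 (adjusted p = 0.492). Total-count scaling turned its sign (-0.12), again without a call.

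Promoter sequences from RefSeq (GRCh38.p14) were matched by symbol for 7 of the 10 genes, in 10 windows, and the 250 bases before each start were searched on both strands for the E2F motifs TTTCCCGC, TTTGGCGC, TTTCGCGC and TTTGCCGC. One of the 10 windows held a match, that of E2F1, as did 2.79% of all 35116 promoter windows of this length. The stretch is shown because E2F1 is known to be under E2F control itself, with the matches in capitals, at chr20:33686398-33686457 on the minus strand.

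E2F1 promoter: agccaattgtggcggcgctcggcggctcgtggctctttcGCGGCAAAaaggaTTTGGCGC

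The matches start 33 and 20 bases before the RefSeq start, the first on the opposite strand and the second on the gene's own strand, and they do not overlap. A match in letters is a description and was not tested for binding. The RB1 window (48476200 to 48476449) lies inside the gene, well past the start of the transcript described (48303726). The E2F1 window (33686386 to 33686635) runs past the start of the transcript described (33686404) too. The second E2F1 match spans that start and lies mostly inside the transcript, while the first lies before it. Windows of other genes, such as CDKN1B and CCNE1, also run past the start of the transcript described. A window without a match therefore does not show that the promoter of that transcript lacks the motifs. In the list of 18 E2F target genes given further on, 9 of 22 windows held a match.

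Ordered by level per kilobase of coding length in the wild type, CDK4 (152 CPM per kilobase) stood first, followed by CCND2 (109), RB1 (52.6), CDKN1B (39.1), CCND3 (34.4), CDK6 (31.2), CCND1 (8.70), CCNE1 (4.95) and E2F1 (4.71). CCND3 and CDK6 overlapped between libraries, as did CCNE1 and E2F1, and the other neighbours did not. In the knockout the order was CDK4 (142.9), CDKN1B (65.3), CCND3 (62.8), CCND2 (55.4), CDK6 (33.1), RB1 (33.0), CCNE1 (19.6), CCND1 (6.87) and E2F1 (5.21). There CDKN1B overlapped CCND3 and also CCND2, and CDK6 overlapped RB1. CDK4 and E2F1 kept the ends of the order. In the knockout CDKN1B and CCND3 stood above RB1, CCNE1 above CCND1 and CCND3 above CCND2. By these counts each pair had the opposite order in the wild type, with no overlap in either group. For CCND3 and CCND2 the knockout margin was narrow, with a lowest value of 60.88 against a highest of 60.45 CPM per kilobase. Most of the CCND2 coding sequence is shared with an overlapping gene, and the treatment of shared reads is unknown. The place of CCND2 in both orders is therefore uncertain, as is its reversal with CCND3.

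The other CDK inhibitors of the INK4 and CIP/KIP families were lower or did not pass. Of 6 listed, 5 were in the table and 3 were tested: CDKN1A and CDKN2A fell and CDKN2D did not pass (0.13, adjusted p = 0.526, and -0.14 with total-count scaling). Over all genes tested 74.4% were called and 36.6% were lower, so 2 calls of 3 are no larger a share called. CDKN1A, the p53-induced inhibitor p21, had 217.7 and 223.8 CPM in wild-type libraries against 11.6, 10.8 and 11.2 in knockout libraries, and fell by 4.30 on the log2 scale. CDKN2A, whose product p16 blocks CDK4 and CDK6, fell from 24.8 ± 0.588 to 15.7 ± 1.16 CPM (-0.66, adjusted p = 1.81e-06), a call lost when a fold above 1.5 was required. CDKN1C was listed at 0 in all libraries, and CDKN2B, at 0.443 ± 0.150 and 0.324 ± 0.243 CPM, did not pass the filter. Per kilobase, CDKN1A stood at 449 ± 8.67 CPM and CDKN1B at 39.1 ± 0.834 in the wild type, whereas in the knockout CDKN1A stood at 22.8 ± 0.824 and CDKN1B at 65.3 ± 5.40. The order of these inhibitors was thus opposite in the groups, with no overlap in either.

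The other pocket proteins fell like RB1. RBL1 (p107) fell from 60.5 ± 4.42 to 41.7 ± 1.49 CPM (-0.53, adjusted p = 5.86e-08, a call lost when a fold above 1.5 was required). RBL2 (p130) fell from 52.2 ± 2.69 to 24.5 ± 1.57 CPM (-1.09, adjusted p = 1.08e-14). All 3 pocket protein genes were thus lower, where 36.6% of all genes were. They were lower too under each of the 3 other scalings of the same libraries. The 3 were not planned as a group, so their count is not independent evidence of a direction. E2F and DP genes went both ways. With RBL1 and RBL2, the list had 11 genes tested, of which 5 rose, 5 fell and 1 did not pass, with a median log2 fold change of 0.0865. Over all genes tested 37.8% rose and 36.6% fell, with a median of 0.0161.

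Among the activator E2Fs, E2F2 rose by 0.79 and E2F3 by 0.35, beside 0.16 for E2F1, which did not pass. E2F8 (1.44) rose and E2F7 (-0.78) fell, the atypical repressors of the family, and E2F6 (0.47) and E2F5 (0.43) rose while E2F4 (-0.25), the main partner of p130, fell. TFDP1, which pairs with E2Fs to bind DNA, fell (-0.52), and TFDP2 did not pass (0.09, and -0.19 with total-count scaling). E2F4 (-0.22, adjusted p = 0.114) and E2F5 (0.22, adjusted p = 0.121) lost their calls without wild type replicate 1, E2F4 also with DESeq2 (adjusted p = 0.0757), and total-count scaling ended those of E2F3 (0.08) and E2F5 (0.15).

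CDK2 and the proteins that activate G1 kinases were higher or did not pass. CDC25A, the phosphatase that removes inhibitory phosphate from CDK2, rose from 103 ± 8.78 to 205.7 ± 1.36 CPM (1.00, adjusted p = 2.41e-19). Of the CDK-activating kinase, CDK7 (0.26) and MNAT1 (0.35) rose and CCNH did not pass (0.09). CDK2 itself stood at 56.8 ± 5.10 and 63.6 ± 3.49 CPM (0.16, adjusted p = 0.0551, and -0.11 with total-count scaling). It passed as higher without wild type replicate 1 (0.25), METTL18 knockout replicate 1 (0.19) or the low-count filter (0.18). In all 3 of these 5 genes rose and none fell, where 74.4% of all genes were called and 37.8% rose, and the call of CDK7 was lost without wild type replicate 2 (0.16, adjusted p = 0.118); under total-count scaling CDC25A alone rose, CCNH passed as lower and CDK7 turned sign.

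The ubiquitin ligase parts that turn over these proteins also moved both ways, with 2 of 8 tested higher, 3 lower and 3 not past, a smaller share called than the 74.4% of all genes. FBXW7, which recognises cyclin E for degradation, fell from 23.9 ± 0.954 to 8.69 ± 0.735 CPM (-1.46, adjusted p = 1.2e-13). FBXO4 (-1.04) fell and FBXO31 (1.11) rose, both reported adaptors for cyclin D1. SKP2, which recognises p27, did not pass (0.13, adjusted p = 0.0754, and -0.14 with total-count scaling), its cofactor CKS1B fell (-0.20), and the RING protein RBX1 rose (0.73). SKP1 (0.09) and AMBRA1 (0.34), the receptor for D cyclins, did not pass. Without METTL18 knockout replicate 1, SKP1 (0.14) and SKP2 (0.15) passed as higher, as they did without a low-count filter (0.11 and 0.16). SKP2 also passed without wild type replicate 1 (0.21) and SKP1 with replicate number as a block (0.09). Total-count scaling turned SKP1 to lower.

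Of the MuvB core, which joins p107 or p130 with E2F4 to silence cell-cycle genes, LIN9 (0.42) and LIN52 (0.41) rose, LIN37 (-0.53) and LIN54 (-0.27) fell and RBBP4 (-0.03) did not pass. Over all genes tested 74.4% were called, 37.8% higher and 36.6% lower, and of these 5 genes 2 rose and 2 fell. These calls were weak: those of LIN37 and LIN54 were lost without wild type replicate 1 (-0.37 and -0.26), that of LIN52 without wild type replicate 2 (0.21), that of LIN37 also without METTL18 knockout replicate 2 (-0.38), and neither rise held with total-count scaling.

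Well-known E2F target genes of S-phase entry mostly rose. Of 18 listed, 17 were tested, and 14 rose, 2 fell and 1 did not pass, where 37.8% of all genes rose, with a median log2 fold change of 0.55 beside 0.0161. CDT1, which loads the replicative helicase, rose by 2.42, and the helicase subunits MCM5 by 1.28, MCM4 by 1.18 and MCM6 by 1.08. POLA1 (-0.77) and TYMS (-0.41) are named after their values were seen, as the 2 that fell. This list was drawn up with earlier results of these libraries known, so the count is not independent evidence of a direction. With total-count scaling the rises of MCM2 (0.06), MCM7 (0.05) and MYBL2 (-0.01), also named after their values were seen, were lost.

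**Figure D3:**
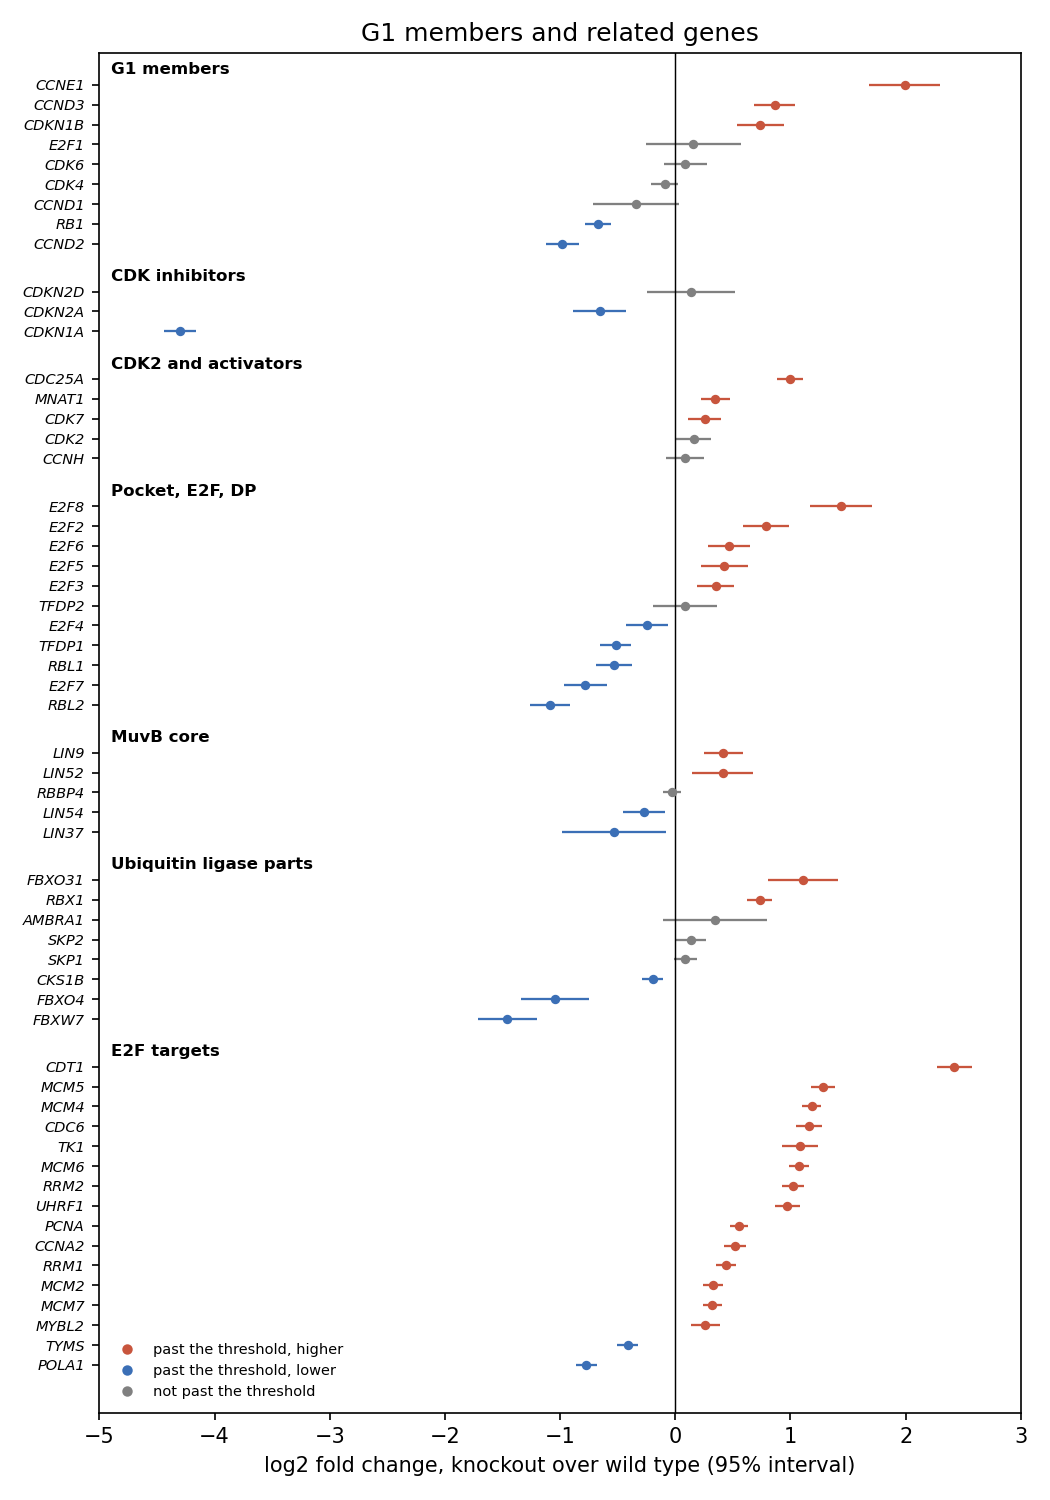
Log2 fold change of knockout over wild type with its 95% interval for the 9 genes and 6 lists of related genes, in red where called higher, in blue where called lower and in grey where not past the threshold. CDKN1A lies far to the left at -4.30, the 3 pocket proteins RB1, RBL1 and RBL2 are all blue, and 14 E2F targets are red, with the 2 that fell in blue and the target that did not pass left out.

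Genes with the most similar pattern were found by the Euclidean distance of log2 CPM, centred on each gene's mean over the 5 libraries, among genes whose log2 CPM averaged 3 or more. For CCNE1 they were COL9A3 (distance 0.173) and ZNF518B (0.181), and for CCND3 UROD (0.0501) and GRN (0.0584). With 2 groups this measure follows the fold change almost alone. Within a distance of 0.2 there were 3 genes for CCNE1, 120 for CCND2 and 307 for CCND3.

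Across 16 processing alternatives, CCND2, CCND3, CCNE1 and RB1 were called in the same direction in all 16 and CDKN1B in 15. The log2 fold change of CCNE1 ran from 1.72 to 2.25, that of CCND3 from 0.59 to 0.96, that of CDKN1B from 0.47 to 0.81, that of RB1 from -0.95 to -0.65 and that of CCND2 from -1.25 to -0.93. CDK4 passed as lower in 5 of 16 and CCND1 in 2 of 15, while CDK6 and E2F1 passed in none, with highest values of 0.18 and 0.34. The 5 for CDK4 include the replicate block and the fit without METTL18 knockout replicate 3, which are nearly the same fit. Total-count scaling, which moved the median of all genes to -0.255 and the calls from 4288 up and 4143 down to 2982 up and 5597 down, gave the lowest value for each of the 9.

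**Figure D4:**
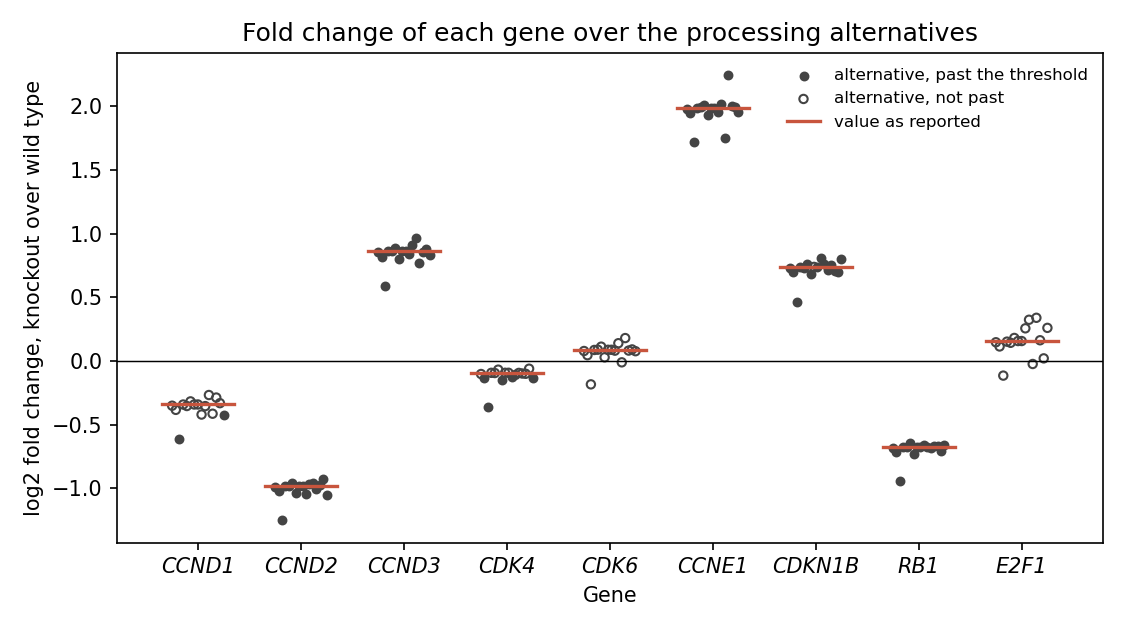
Log2 fold change of each of the 9 genes under each processing alternative (points, filled where past the threshold) and as reported (red line). The points of CCND2, CCND3, CCNE1 and RB1 are filled throughout, those of CDK6 and E2F1 are open throughout and lie around 0, and the lowest point of each gene is total-count scaling.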

How the data were processed

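Footprints of 28 to 32 bases were made with RNase I and taken from monosomes, per the labels' protocols, and the molecule field reads polyA RNA. The authors deposited raw counts, 1 row per Ensembl transcript with a gene symbol. Bowtie and hg38 were used, per the submitters' processing notes, and no source used here names the counting tool, the annotation release or the treatment of shared reads. RNA-seq of the same cells was not analysed. GENCODE 29 on the same build gave coordinates and coding length for 13960 of 14084 rows (99.1%).

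The test was that of edgeR 4.0.16 under R 4.3.3 (TMM factors of 0.923 to 1.12, the filterByExpr rule at count 10 and total 15, robust quasi-likelihood fit, group as the sole term, Benjamini-Hochberg adjustment over all genes tested), after a check on simulated data. The SE is the log2 fold change divided by the square root of F. Precision is limited by the wild-type depth. The wild-type libraries differed slightly beyond counting noise (chi-square per degree of freedom 1.14 over 10241 genes, p = 8.02e-22) and were counted as 2. The pairs of knockout libraries, which are deeper, stood at 2.78, 3.48 and 2.73 by the same measure. Both groups shared an estimate of spread in the fit. Alternatives used other scalings, filters and fits, DESeq2 1.42.0, limma 3.58.1 (voom), thinned knockout libraries and each library left out. The members and gene lists were chosen with earlier results of these data known. All members were named, with all tested genes of lists of up to 11 genes and otherwise the 4 with the smallest adjusted p, and the 2 nearest genes of the 3 members with the largest absolute fold change. CCNE2, CDKN2C, CUL1 and MCM3 were not analysed here, and the nearest genes of CCND2 and 1 E2F target are not reported here.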

Additional observations from a re-analysis of the deposited data

How the results depend on the processing

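The 2 members called lower became 4 with total-count scaling, and ran from 2 to 4 over the fits that each left out 1 library. Total-count scaling also left 1 gene of the CDK2 list higher and 1 lower, 3 of the pocket protein, E2F and DP list higher and 0 of the MuvB core higher (0 at an unadjusted p under 0.05, edgeR), and it turned the sign of CDK6 (-0.184), E2F1 (-0.116), CDKN2D (-0.137), CDK2 (-0.113), CDK7 (-0.0165), CCNH (-0.186), TFDP2 (-0.185), SKP1 (-0.185), SKP2 (-0.139) and MYBL2 (-0.011). These turns go with the shift of all genes under that scaling. With 1 library left out, values that did not pass ran through 0 for CDK6 (-0.0112 to 0.179), E2F1 (-0.0243 to 0.339), CCNH (-0.0539 to 0.224) and TFDP2 (-0.037 to 0.224), and CCNH was at -8.12e-05 with thinned knockout libraries. When a fold above 1.5 was required (glmTreat in edgeR), 2011 genes were higher and 2129 lower over the whole table, with 1 other inhibitor lower, 1 gene of the CDK2 list higher, 2 of the pocket protein, E2F and DP list in each direction, 8 E2F targets higher and 1 lower, and 0 of the MuvB core in either direction (0 at an unadjusted p under 0.05). The MuvB core had 0 lower with DESeq2 (1 at an unadjusted p under 0.05) and 1 in each direction with thinned knockout libraries, and ran from 1 to 2 higher and from 0 to 2 lower with 1 library left out. Ubiquitin ligase parts had 4 higher without a low-count filter, and 2 to 4 with 1 library left out; where the alternative itself does not show the cause, the cause was not tested. Of 781 values of 49 list genes over the alternatives, 716 kept their direction and side of the threshold, 40 lost a call, 14 gained one and 11 turned sign. The titles share replicate numbers 1 and 2, and deviations of same-numbered libraries correlated by 0.00853 and 0.0231 across genes, so the numbers were not taken as pairs. With the replicate block, 4322 genes were higher and 4154 lower, and CDK4 passed as lower (-0.127, adjusted p = 0.0257, edgeR). Replicate 3 exists in the knockout alone, so under the block that library adds nothing to the comparison of the groups. The block is thus nearly the same fit as that without METTL18 knockout replicate 3 (CDK4 -0.133). Counts of 30 to 48 in the wild type limit what can be seen for CCND1, CCNE1 and E2F1.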
